A study of Pomacea canaliculata with 34 samples.

Results

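The 100 genes described here are those whose levels differed most between libraries of the same developmental stage in the apple snail Pomacea canaliculata. They were taken from 10353 genes that had a mean of 10 CPM (the reads of a gene scaled to a common library total) or more over the stages, out of 21131 genes counted. For each gene the standard deviation (SD) of log2(CPM + 1) among the libraries of a stage was averaged over the 10 stages, and the 100 genes with the highest average were kept. These SDs chose the genes, so they are given as a description with no test. Polyadenylated RNA came from whole embryos taken out of their eggs at each stage from Stage 2 to Stage 7 (3 libraries each) and from Stage 8 to Stage 10 (4 each), and from whole hatchlings (4). The labels name no strain, age or treatment, and no clutch or number of animals per library, so the spread between libraries may be biological or technical.

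Apple snails are freshwater gastropods with separate sexes that mate with each other and lay clutches of eggs above the water line. Each embryo feeds on the fluid inside its egg and develops directly into a crawling hatchling, without a free larva. The RNA of a whole animal sums over all its tissues, so fewer cells of a type and less RNA per cell cannot be told apart. All 100 genes were found in the reference gene table of assembly ASM307304v1, where they are protein coding, but that table gives no product names. The genes are therefore known by identifier only, and what they share was sought in their levels, in the libraries in which they moved and in their order along the chromosomes. Libraries of Stage 2 to Stage 7 held between 16608796 and 23030901 reads in genes, and later ones between 13392123 and 95942469.

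The genes owed their rank to wide differences at many stages. In the extreme cases some libraries had little or none of the transcript while others of the stage had it. The average SD ran from 0.532 to 1.80 on the log2 scale, with a median of 0.655, against a median of 0.116 over all 10353 genes. Each of the 100 genes had at least 1 stage with a 2-fold or wider range of CPM + 1 between libraries, which 12.4% of all genes had. A 4-fold range was reached by 94 and a 10-fold range by 46, against 2.05% and 0.551% of all genes. The SD was over 0.5 at a median of 6 of the 10 stages. LOC112558962 (0.533) and LOC112570891 (0.532) were the last inside the limit, and LOC112577024 (0.529) and LOC112555001 (0.528) were the first outside it, so the limit falls in a continuous range of values.

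**Figure D1:**
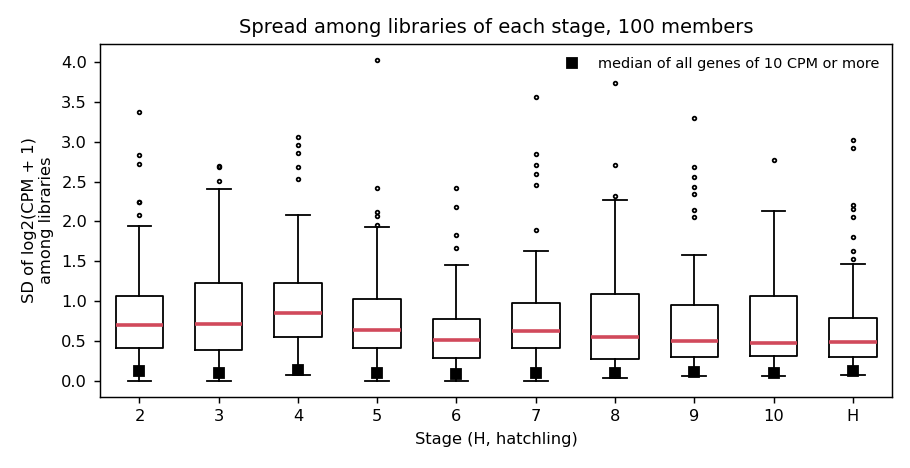
Box plots of the SD of log2(CPM + 1) among libraries at each stage for the 100 genes (vertical axis, log2 units; line, median; box, quartiles; whiskers, 1.5 times the box; dots, genes beyond them). Black squares mark the median of all 10353 genes, which lies under the box of the 100 genes at every stage.

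The spread was widest in the first stages. The median SD of the 100 genes was 0.704 at Stage 2, 0.708 at Stage 3 and 0.850 at Stage 4, 0.640 at Stage 5, 0.509 at Stage 6 and 0.621 at Stage 7. It was 0.555 at Stage 8, 0.493 at Stage 9, 0.480 at Stage 10 and 0.488 in the hatchling. Over all 10353 genes the median also fell, from 0.134 at Stage 4 to 0.0800 at Stage 6, its highest and lowest values. It did not stay low, and was 0.119 in the hatchling. The average SD was higher at Stage 2 to Stage 7 than at Stage 8 to the hatchling in 55 of the 100 genes. Over all 10353 genes this held for 52.5%, a share near that of the set. In 25 of the 100 the early average was at least 2 times the late one, in 13 the reverse held, and 62 lay within a factor of 2. No share over all genes was taken for these last counts, and nothing is read from them. The early stages have 3 libraries each and the late ones 4, and some late libraries are much deeper. The part of either in the wider early spread was not tested.

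The same measure was taken in libraries that the ranking of a choice had not used. Only the ranking by SD was so limited, as the limit of 10 CPM was set over all 10 stages. When 100 genes were chosen by the same rule at Stage 2 to Stage 7 alone, their median average SD over Stage 8 to the hatchling was 0.441, against 0.109 for all 10353 genes. Of these 100 genes, 96 lay above the median of all genes and 81 in the highest 10%. When 100 genes were chosen at Stage 8 to the hatchling, their median over Stage 2 to Stage 7 was 0.456, against 0.116 for all genes, with 83 above the median and 74 in the highest 10%. With a pseudocount of 10 in place of 1 these medians were 0.273 against 0.0855 for all genes and 0.187 against 0.0841, that is 3.20 and 2.22 times the median of all genes in place of 4.04 and 3.94 times. The choices at early and at late stages shared 35 genes, which is 35% of each list. A wide spread at one end of development was thus often, not always, met again at the other.

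LOC112565614, which ranked first (average SD 1.80), was present or absent by library until it was lost from all of them. Its Stage 2 libraries held 18.0, 0.247 and 16.8 CPM, and its Stage 3 libraries held 30.2, 32.8 and 0.280 CPM. All Stage 4 libraries had it (25.1, 40.5 and 56.7 CPM), whereas those of Stage 5 held 0.655, 208 and 207 CPM. The low libraries held 5 reads at Stage 2, 6 at Stage 3 and 14 at Stage 5, so they are not at a true zero but are far under the others. Stage 6 had 164, 44.0 and 224 CPM, and Stage 7 had 32.8, 149 and 0.209 CPM. The libraries of Stage 8 were close together, at 157, 129, 137 and 125 CPM. At Stage 9 replicates 1 and 2 held 0.0398 and 0 CPM and replicates 3 and 4 held 55.7 and 48.9 CPM. No library of Stage 10 or of the hatchling exceeded 0.179 CPM.

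Such a switch between libraries of one stage was seen in 22 of the 100 genes, counted where a library was under 1 CPM and another of that stage at 10 CPM or more. It was seen in 23 of all 10353 genes (0.222%), so all but 1 of the genes with it are among the 100. A gene of wide range between libraries has a high SD by construction, and nothing is read from this excess. It occurred at 2 or more stages in 12 genes and at 3 or more in 7. LOC112556704 switched at 4 stages, of which the last was the hatchling, with 0.177, 0.0897, 10.4 and 20.2 CPM. Its Stage 10 values were 10.0, 8.86, 8.36 and 0.172 CPM, so 1 library there and 2 in the hatchling were near zero. LOC112568970 also switched at 4 stages, with 36.6, 51.3 and 0.457 CPM in the libraries of Stage 4. Its Stage 8 values were 0.126, 1.045, 13.3 and 0.540 CPM. Its hatchling values (5.44, 4.22, 4.97 and 5.64 CPM) lay close together.

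LOC112575506 and LOC112576136 were at or near zero in the same replicate at each of 3 stages. For LOC112575506, Stage 7 gave 25.9, 24.1 and 0.366 CPM, Stage 8 gave 29.0, 32.3, 0.388 and 32.2 CPM, and Stage 9 gave 30.5, 32.0, 0.345 and 0.243 CPM. For LOC112576136, Stage 7 gave 22.6, 26.8 and 0 CPM, Stage 8 gave 28.5, 13.5, 0 and 14.1 CPM, and Stage 9 gave 21.0, 30.7, 0.173 and 11.8 CPM. Replicate 3 was thus at or near zero at each of Stage 7, Stage 8 and Stage 9 for both genes, and replicate 4 of Stage 9 for the first alone. At the other stages no library of either gene was under 6 CPM. The genes lie 37 places apart in the order of counted genes on one linkage group, and their deviations from the stage means had a Pearson correlation of 0.884 over the 34 libraries.

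LOC112564854, LOC112568515, LOC112577445 and LOC112569021 varied widely at late stages. At Stage 10 LOC112564854 was read at 58.7 CPM in replicate 2 and at 0.271, 0.140 and 0.504 CPM in the others. In the hatchling it was the other way round, with 2.56 CPM in replicate 3 and 254, 134 and 226 CPM in the rest. LOC112568515 had Stage 8 values of 39.5, 1.57, 63.6 and 48.3 CPM, and in the hatchling its libraries fell into 2 levels, 59.7 and 56.9 CPM against 5.76 and 5.83 CPM. LOC112577445 had Stage 8 values of 32.3, 35.5, 19.0 and 0.212 CPM and Stage 9 values of 11.5, 0.172, 36.7 and 34.8 CPM. At Stage 8 the low library was therefore replicate 2 for the one gene and replicate 4 for the other. LOC112569021 had Stage 8 values of 52.8, 27.8, 0.111 and 58.9 CPM, low in replicate 3, and lay between 19.5 and 22.1 CPM in every hatchling library.

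LOC112558849 and LOC112553171 varied most at early stages. LOC112558849 had 246, 3.36 and 3.31 CPM in the Stage 2 libraries and 96.7, 8.89 and 394 CPM in those of Stage 4, but between 17.2 and 18.7 CPM in all libraries of Stage 8. LOC112553171 had 2.68, 8.67 and 107 CPM in the Stage 3 libraries and 3.69, 1.31 and 93.6 CPM in those of Stage 7. From Stage 8 on it was read in every library, at 16.5 CPM or more. LOC112557813, the most abundant of the 10 genes with the highest average SD, had its widest spread at Stage 8. Its values there were 1581, 16.9, 1411 and 14.8 CPM, a pair of high and a pair of low libraries, and its Stage 9 values were 21.6, 1357, 145 and 118 CPM.

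**Figure D2:**
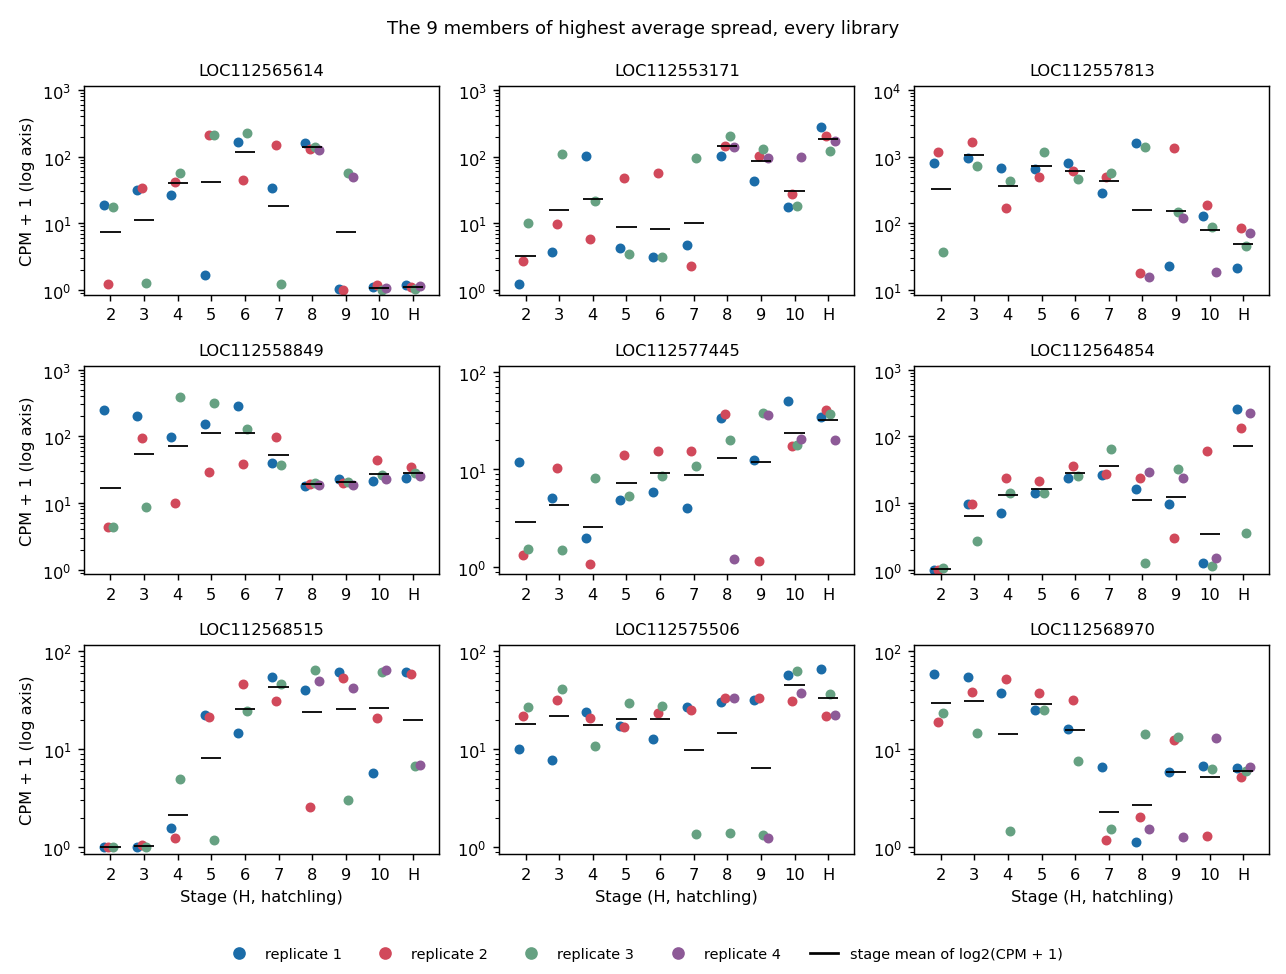
Level of the 9 genes with the highest average SD in each of the 34 libraries (vertical axis, CPM + 1, log axis; horizontal axis, stage, with H for the hatchling; points, libraries coloured by replicate number; bars, stage means on the log scale). LOC112565614 has libraries near zero at Stage 2, 3, 5, 7 and 9 beside libraries of 16.8 CPM or more.

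Most of the 100 genes were of modest level. Their median mean level was 23.6 CPM, against 41.8 CPM over the 10353 genes, and 43 had a mean under 20 CPM, against 21.5% of all genes. Only 9 reached a mean of 100 CPM, against 21.5% of all genes. The highest means belonged to LOC112570177 (686 CPM), LOC112557813 (538 CPM), LOC112558992 (455 CPM), LOC112570116 (404 CPM) and LOC112576650 (375 CPM). LOC112570177 had Stage 2 values of 83.5, 69.5 and 342 CPM and at least 1112 CPM in every library of Stage 3. LOC112570116 had hatchling values of 248, 266, 1242 and 731 CPM, highest in replicate 3. LOC112576650 had Stage 8 values of 38.8, 51.2, 216 and 44.4 CPM and Stage 9 values of 24.9, 41.1, 190.0 and 36.7 CPM, with replicate 3 the high one each time.

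The difference between libraries was set beside that between stages. In the median gene of the 100, 35.9% of the variance of log2(CPM + 1) over the 34 libraries lay within stages, against 6.39% over all 10353 genes. The share was over 50% in 31 of the 100, against 2.94% of all genes. It was highest in LOC112562647 (89.6%), LOC112576438 (87.3%) and LOC112576136 (84.8%), in which the stage means differed little and the libraries of a stage widely. LOC112576438 had 17.6, 14.7, 13.6 and 11.0 CPM in the hatchling, against 61.3, 4.00 and 4.25 CPM in the Stage 2 libraries. The share was lowest in LOC112554235 (6.30%), LOC112557449 (6.31%) and LOC112576495 (6.51%), in which a steep course over development exceeded a spread that was wide all the same.

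Differences between stages, which the rule did not use, were tested with edgeR's quasi-likelihood test fitted to all 17441 genes that passed its filter on low counts, with Benjamini-Hochberg adjustment over all of them. All 100 genes passed the filter. The F-test over all stages called 78 of the 100, where 95.4% of all tested genes were called. The spread that chose the genes is also the error term of this test, and nothing is read from the lower share. Among the genes without a call were LOC112576136 (adjusted p = 0.982) and LOC112575506 (adjusted p = 0.835, both edgeR). With limma-voom in place of edgeR the count was 57.

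In the hatchling, 39 of the 100 genes were higher than at Stage 2, where 52.0% of all tested genes were, and 31 were lower, where 34.2% were. Among the 10353 genes of 10 CPM or more, from which the set was drawn, 38.7% were higher and 50.3% lower. Since the error term of this test is again the spread that chose the genes, nothing is read from how these shares differ. The median log2 fold change of the 100 was 0.17, and it was 0.56 over all tested genes and -0.23 over the genes of 10 CPM or more. With 4 of the 100 genes at 0 reads at Stage 2 set to their lower bound, the median was again 0.17. The median of all tested genes moved with the scaling, from 0.56 with TMM to 0.64 with RLE size factors and 1.01 with library totals, and that of the 100 genes from 0.17 to 0.25 and 0.62. LOC112557449 was read at 136, 759, 960.2 and 211 CPM in the hatchling and had 0 reads in all 3 libraries of Stage 2, which is at least 7652-fold higher when 3 reads are allowed over the Stage 2 libraries (edgeR adjusted p = 3.74e-06). Before Stage 8 its only reads were 2 in 1 library of Stage 4. Stage 8 gave 0.337, 3.73, 1.33 and 9.28 CPM, and its libraries differed widely at each stage from then on. LOC112577368 was read at 84.5, 66.9, 70.4 and 118 CPM in the hatchling and also had 0 reads at Stage 2, at least 1569-fold higher on the same allowance (edgeR adjusted p = 4.13e-08).

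LOC112554235 fell to 2.00 ± 0.784 CPM in the hatchling (SD, n = 4), against 195 ± 39.9 CPM at Stage 2 (n = 3). The edgeR log2 fold change was -6.99 ± 0.624 (SE), with an adjusted p of 2.58e-11. In between, the Stage 5 libraries differed widely, with 34.8, 4.21 and 23.9 CPM. LOC112565614 fell to 0.118 ± 0.0649 CPM in the hatchling (n = 4), against 11.7 ± 9.91 CPM at Stage 2 (n = 3). The edgeR log2 fold change was -6.85 ± 2.06 (SE), with an adjusted p of 0.00321. Since 1 library of Stage 2 held only 0.247 CPM, close to the hatchling libraries, the groups nearly meet. That call was lost with limma-voom (adjusted p = 0.367).

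Between neighbouring stages, 48 of the 100 genes were called in at least 1 of the 9 steps. The share was 83.6% of all tested genes and 90.4% of the genes of 10 CPM or more. Stage 8 against Stage 7 called 9 higher and 10 lower (22.9% and 23.2% of all tested genes), and Stage 3 against Stage 2 called 11 higher and 4 lower (22.7% and 16.3%). The hatchling against Stage 10 called 10 higher and 5 lower (16.9% and 19.3%). Stage 9 against Stage 8 called 5 higher and 5 lower (12.4% and 10.2%), and Stage 4 against Stage 3 called 3 higher and 3 lower (12.6% and 8.80%). Stage 5 against Stage 4 called 2 higher and 2 lower (12.0% and 10.7%), Stage 7 against Stage 6 called 4 higher and 0 lower (16.4% and 14.1%), and Stage 10 against Stage 9 called 2 higher and 3 lower (2.64% and 2.51%). Stage 6 against Stage 5 called 0 with edgeR (3.10% higher and 0.321% lower over all tested genes), with 3 of the 100 at an unadjusted p under 0.05 and 0 with DESeq2 or limma-voom. In 8 of the 9 steps the set had calls, and in most of them a smaller share than all genes. Because the spread that chose the genes is the error term here too, nothing is read from the smaller shares. The hatchling held the highest stage mean of 25 of the 100 genes, against 17.9% of all 10353, and Stage 2 that of 14, against 20.04%.

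Genes of the set that are close neighbours in gene order mostly moved together. For each pair of the 100 genes, the deviations of the genes from their stage means were correlated over the 34 libraries. Deviations within a stage sum to zero and all pairs share the same libraries, so these correlations are given as a description. The size of the same deviations chose the genes. At any distance, nothing is therefore read from how far the correlations of the set exceed those of all genes. Some pairs share a gene and are not separate cases. Of the 100 genes, 15 had another of them as direct neighbour among the counted genes, as had 90 of the other 10253 genes (0.878%). The 8 pairs of direct neighbours had a median correlation of 0.882, against 0.0846 for the 7144 pairs of direct neighbours among all 10353 genes. For 6 pairs that lay 2 to 5 genes apart the median was 0.830, against 0.0414 for all such pairs.

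At 6 to 50 genes apart the pairs of the set went both ways. Of 28 such pairs, 5 correlated at 0.6 or above and 9 at -0.6 or below, against 1.74% and 0.918% of all 245358 pairs at that distance. Several of these pairs, of both signs, came from 1 stretch with 5 of the 100 genes, described below, and are not separate cases. Others of both signs lay elsewhere. Beyond 50 genes on the same linkage group, 17 of 365 pairs reached 0.6 and 14 reached -0.6, against 0.909% and 0.390% of all such pairs. On different linkage groups, 65 of 4543 pairs reached 0.6 and 35 reached -0.6, against 0.644% and 0.230%. The 90 other genes of 10 CPM or more next to one of the 100 had a median average SD of 0.149, against 0.115 for all the other 10253, and 27.8% of them lay in the highest 10% of those.

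**Figure D3:**
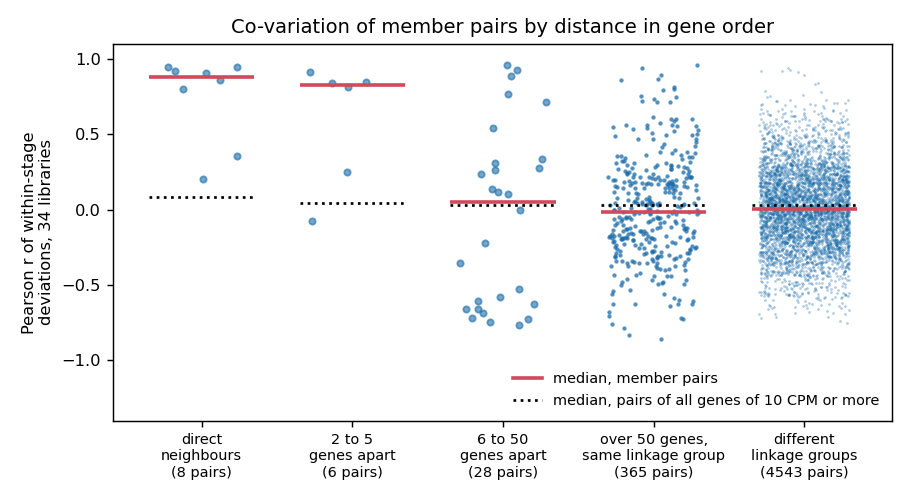
Pearson correlation of within-stage deviations for every pair of the 100 genes (vertical axis), by distance in the order of counted genes (horizontal axis, with the number of pairs). Points are pairs, red lines their median and dotted lines the median over pairs of all 10353 genes. Direct neighbours lie mostly above 0.8, and pairs 6 to 50 genes apart range from -0.767 to 0.960, with 14 of the 28 at 0.6 or more in absolute value.

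Stretches of neighbouring genes rose and fell as one. LOC112565595, LOC112565594 and LOC112566881 are 3 consecutive genes with correlations of 0.905, 0.859 and 0.911. Their Stage 5 values were 37.7, 2.05 and 15.3 CPM for the first, 29.9, 2.47 and 7.76 CPM for the next and 175, 17.4 and 75.8 CPM for the last, with replicate 1 high and replicate 2 low for each. At Stage 8 replicate 2 was the high one for all 3, at 35.2, 17.1 and 190.2 CPM. LOC112567685 and LOC112561072 are neighbours with a correlation of 0.948, with Stage 10 values of 34.2, 225, 91.0 and 61.2 CPM and of 15.7, 101, 21.4 and 21.7 CPM, highest in replicate 2 for both. LOC112557637 and LOC112555657 (0.947) and LOC112571996 and LOC112571995 (0.923) were other such pairs. LOC112577369 and LOC112577368 (0.202) and LOC112570176 and LOC112570177 (0.354) are neighbours that did not share their deviations as closely. Adjacent genes can be copies of each other whose reads are split or shared by the counting, and without their sequences this was not tested, so the levels of single genes in such stretches are uncertain.

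One stretch held genes that moved in opposite directions. Among 88 counted genes in a row lay 5 of the 100, in the order LOC112562647, LOC112563120, LOC112562282, LOC112561674 and LOC112562423. At Stage 3 LOC112563120 had 0.139, 8.22 and 29.8 CPM and LOC112561674 had 0, 1.94 and 8.17 CPM, lowest in replicate 1 and highest in replicate 3. In these libraries LOC112562282 had 98.7, 64.4 and 21.8 CPM and LOC112562647 had 32.9, 23.7 and 3.97 CPM, highest in replicate 1 and lowest in replicate 3. At Stage 4 LOC112563120 had 29.1, 0.142 and 0.971 CPM and LOC112562282 had 45.8, 90.6 and 92.5 CPM, opposed once more. The correlation was 0.960 between LOC112563120 and LOC112561674 and 0.929 between LOC112562282 and LOC112562647, but -0.728 between LOC112563120 and LOC112562282. From Stage 8 on LOC112563120 lay between 10.9 and 27.4 CPM with libraries closer together than before. LOC112562282 and LOC112562423 were chosen for description after their values were seen. The 50 other genes of 10 CPM or more in the stretch had a median average SD of 0.0976, under that of all genes.

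LOC112560469 and LOC112558992 showed separate levels late in development, on a linkage group that they share at 259 genes apart. In the hatchling LOC112560469 had 11.0, 17.8, 195 and 197 CPM and LOC112558992 had 86.6, 88.1, 479 and 468 CPM, with replicates 1 and 2 low and replicates 3 and 4 high for both. Their Stage 10 values were 148, 143, 17.4 and 144 CPM and 339, 359.6, 102 and 329 CPM, with only replicate 3 low. At Stage 8 and Stage 9 no library stood apart, with 117 to 173 CPM for LOC112560469. Their correlation was 0.893. LOC112558842, on the same linkage group, went the other way. In the hatchling it had 20 CPM or more in replicates 1 and 2 and 2.46 and 2.32 CPM in replicates 3 and 4, and its Stage 10 values were 18.2, 17.8, 32.9 and 19.7 CPM, with a correlation of -0.855 with LOC112560469. LOC112560469 and LOC112558842 were chosen for description after their values were seen.

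LOC112575785 and LOC112575898, 152 genes apart, had the highest correlation of deviations from the stage means among pairs of 1 linkage group (0.962). They were likewise chosen after their values were seen. LOC112575785 had 17.4, 1.13 and 21.0 CPM at Stage 4, 17.7, 14.2, 2.10 and 14.7 CPM at Stage 8 and 18.5, 16.3, 2.56 and 15.2 CPM at Stage 9. LOC112575898 had 2.87, 0.0473 and 5.37 CPM, 23.0, 22.5, 5.20 and 24.7 CPM, and 24.9, 21.3, 4.18 and 21.2 CPM at these stages. Both were low in replicate 2 of Stage 4 and in replicate 3 of Stage 8 and of Stage 9. Replicate 3 of Stage 8 and of Stage 9 were also the low libraries of LOC112576136, and LOC112560631 on another linkage group had 0.277 and 0.207 CPM in them, against 3.21 to 5.30 CPM in the other libraries of these stages.

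**Figure D4:**
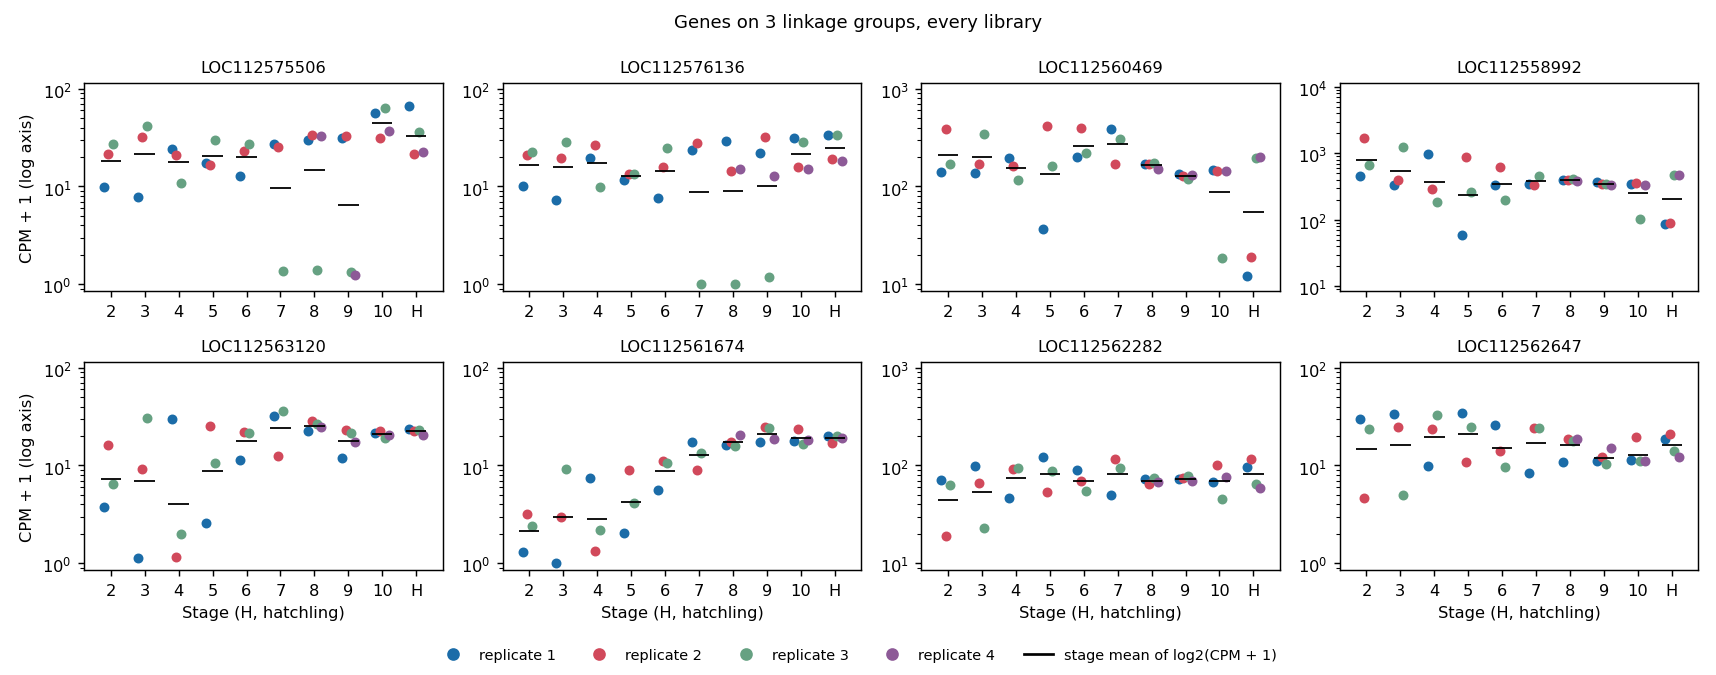
Level of 8 genes from 3 linkage groups in each library (vertical axis, CPM + 1, log axis; horizontal axis, stage, with H for the hatchling; points, libraries coloured by replicate number; bars, stage means on the log scale). LOC112575506 and LOC112576136 are at or near zero in replicate 3 of Stage 7 to Stage 9, LOC112560469 and LOC112558992 are low together in replicate 3 of Stage 10 and replicates 1 and 2 of the hatchling, and the last 4 genes form 2 pairs that lie opposite each other at Stage 2 to Stage 5.

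When the 100 genes were joined by the likeness of their deviations (average correlation of 0.6 or more), 17 fell into 3 groups of 5 or more, 39 into 16 sets of 2 to 4 and 44 with no other. The largest group held 7 genes from 4 linkage groups with a median correlation of 0.782, led by LOC112570964, LOC112571158 and LOC112576621. For LOC112571158, Stage 2 gave 9.23, 41.7 and 34.3 CPM, Stage 3 gave 3.42, 46.1 and 74.2 CPM and Stage 5 gave 22.9, 13.5 and 83.6 CPM. For LOC112576621, Stage 2 gave 2.64, 16.1 and 13.8 CPM, Stage 3 gave 2.36, 16.2 and 30.6 CPM and Stage 5 gave 8.15, 6.02 and 24.6 CPM. Replicate 1 was thus the low one at Stage 2 and Stage 3 and replicate 3 the high one at Stage 5, in genes of different linkage groups. The second group, led by LOC112563120, LOC112561674 and LOC112557668, held 5 genes from 3 linkage groups with a median of 0.739, and the third, led by LOC112576136, LOC112560631 and LOC112575506, held 5 from 2 linkage groups with a median of 0.748. The number of genes in such groups was 11 without replicate 1 of Stage 3, without replicate 3 of Stage 3 or without replicate 1 of Stage 4, 6 with Spearman correlation, 26 when joined at 0.5 and 5 when joined at 0.7, so group borders are loose.

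Some libraries of different stages resembled each other in these deviations, in part under the same and in part under other replicate numbers. Over the 100 genes, replicate 1 of Stage 2 correlated with replicate 1 of Stage 3 at 0.777, and replicate 2 of Stage 2 with replicate 3 of Stage 3 at 0.765. Replicate 3 of Stage 3 was in turn closest after that to replicate 1 of Stage 4 (0.508), and replicate 1 of Stage 3 to replicate 3 of Stage 4 (0.464). Replicate 2 of Stage 5 correlated with replicate 2 of Stage 6 at 0.641, replicate 3 of Stage 5 with replicate 1 of Stage 6 at 0.566, and replicate 3 of Stage 6 with replicate 1 of Stage 7 at 0.543. Not all such pairs were of neighbouring stages: replicate 2 of Stage 3 correlated with replicate 2 of Stage 7, 4 stages away, at 0.459. The closest library of another stage belonged to a neighbouring stage for 13 of the 18 libraries of Stage 2 to Stage 7 and for 8 of the 16 later ones. For later libraries the closest correlation ran only from 0.151 to 0.360.

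The other 10253 genes of 10 CPM or more tied together many of the same early libraries. For 12 of the 18 libraries of Stage 2 to Stage 7 the closest library of another stage was the same one by the other genes as by the 100. For the 16 later libraries this held for 1. Over these other genes, replicate 2 of Stage 2 correlated with replicate 3 of Stage 3 at 0.446 and replicate 1 of Stage 2 with replicate 1 of Stage 3 at 0.374. Shared parents, clutches or days are not given in the labels, and their part was not tested.

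**Figure D5:**
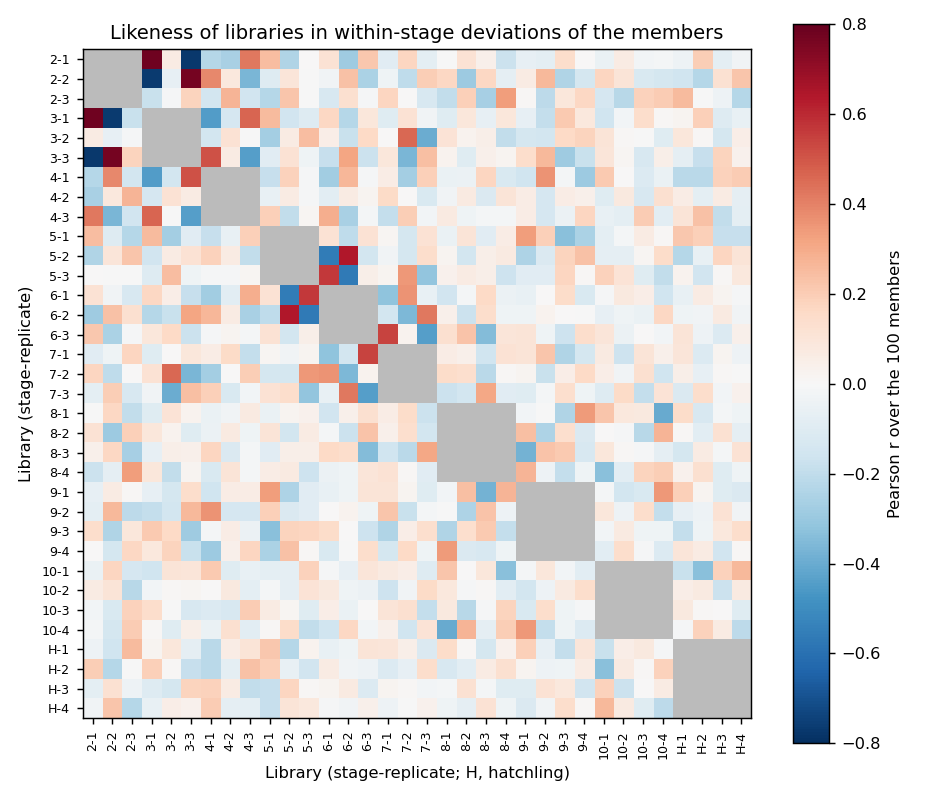
Pearson correlation between libraries over the within-stage deviations of the 100 genes (colour scale, -0.8 to 0.8; both axes, libraries as stage and replicate number, H for the hatchling; grey, libraries of one stage, left out). Strong red cells lie between neighbouring stages up to Stage 7, such as replicate 1 of Stage 2 with replicate 1 of Stage 3 (0.777), and the later libraries have none above 0.360.

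The first principal component of the deviations of the 100 genes held 18.0% of their variance, and that of the other 10253 genes held 10.7% of theirs. Of the 100 genes, 8 correlated at 0.6 or more in absolute value with the first component of the other genes, against 5.88% of all genes, and the median absolute correlation was 0.267, against 0.243. With the total reads of a library, 0 of the 100 genes correlated that closely (0.551% of all genes), and the median absolute correlation was 0.129, against 0.159. Within a stage, each library was the lowest one for 17 to 49 of the 100 genes and the highest one for 17 to 46. The genes were spread over 14 linkage groups, with 14 of 1116, 13 of 991 and 12 of 691 genes of 10 CPM or more on the 3 that held most (1.25%, 1.31% and 1.74%). The highest share was 3.20%, 8 of 250 genes on linkage group 7.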

How the data were processed

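RNA of whole embryos and hatchlings was measured in 34 libraries of 10 stages. The deposited values are raw counts of reads per gene, whole numbers that the authors left unscaled. Per the submitters' processing notes STAR was used; its version, the counting settings, strandedness, build and annotation were not given in the sources used here. No 2 libraries agreed within sampling noise: over 42 pairs within stages the chi-square statistic per gene ran from 10.0 to 188. CPM used column sums and a pseudocount of 1. Tests used edgeR 4.0.16 in R 4.3.3 (filterByExpr with a minimum count of 10, TMM, 1 coefficient per stage, quasi-likelihood test) with Benjamini-Hochberg adjustment over 17441 genes and a threshold of 0.05; limma 3.58.1 and DESeq2 1.42.0 were alternatives, with other scalings, no filter and each library left out. The fits were also run on simulated data. The outcome is not given here, and nothing is read from it for genes that vary as widely as those of the set. The reference table served only for identifiers and gene order, and no sequences were used. Named were the genes of highest average SD or mean, at the limit, leading groups, switching at most stages, neighbouring each other, of extreme variance share and of extreme change from Stage 2 to the hatchling. The set, lists and alternatives were chosen with earlier results of these data known. Same-numbered libraries did not in general deviate together (median correlation -0.000398 over 141 pairs of libraries for the other genes of 10 CPM or more). Single pairs ranged from -0.270 to 0.421 for these genes. For the genes of the set they ranged from -0.449 to 0.777 (median -0.0216), so some same-numbered libraries did deviate together. As this was not general, numbers were not treated as pairs. P-values set differences between stages against the spread between these libraries only.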

Additional observations from a re-analysis of the deposited data

Results flagged for a closer look

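In stages of 4 libraries, a library was looked at again when its gap to the nearest other one, as a share of the range of log2(CPM + 1), exceeded Dixon's critical value. This held for 23 of 196 sets of a gene and a stage, over 49 genes. Chance alone marks about 1 in 20 such sets, and these genes were chosen for wide spread. By rule 43 were named, and 6 were added after their values were seen, among them LOC112560469 and LOC112558842. LOC112575785 and LOC112575898, also chosen after their values were seen, were not looked at in this way. Each value below is the CPM of the library that stood apart.

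At Stage 8, replicate 3 stood apart for LOC112575506 (0.388), LOC112560631 (0.277), LOC112576650 (216) and LOC112571996 (4.10). Replicate 2 stood apart there for LOC112568515 (1.57), LOC112565595 (35.2) and LOC112566881 (190.2), and replicate 1 for LOC112562647 (9.94). At Stage 9, replicate 3 stood apart for LOC112568515 (2.04) and LOC112570891 (2.21), and replicate 1 for LOC112558962 (24.2) and LOC112556704 (1.51).

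At Stage 10, replicate 1 stood apart for LOC112577445 (48.8), replicate 2 for LOC112564854 (58.7), LOC112570964 (6.00), LOC112561072 (101) and LOC112562647 (18.7), replicate 3 for LOC112558992 (102), LOC112560469 (17.4) and LOC112558842 (32.9), and replicate 4 for LOC112556704 (0.172). In the hatchling, replicate 3 stood apart for LOC112564854 (2.56) and replicate 4 for LOC112557668 (7.32). The rest of the hatchling libraries of LOC112564854 lay between 134 and 254 CPM, and those of LOC112557668 between 1.14 and 1.61 CPM.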

How the results depend on the processing

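Of the 100 genes, 97 stayed among the 100 with CPM on TMM-scaled totals, but 39 with a minimum mean of 1 CPM, 26 with a minimum of 50 CPM (26 of the 100 have that mean), 58 with Stage 8 to the hatchling only and 25 with the coefficient of variation in place of the SD; without any 1 library 90 to 99 stayed. The median within-stage share of variance (35.9%) was 34.1% with TMM-scaled totals and 37.7% with a pseudocount of 10, and 33.2% to 36.6% without any 1 library. Genes in groups of 5 or more (17) numbered 26 when joined at 0.5, 5 when joined at 0.7 and 6 with Spearman correlation, and 11 to 23 without any 1 library. The spread met in libraries outside the ranking of a choice (0.441 and 0.456) was 0.273 and 0.187 with a pseudocount of 10. Such a pseudocount lowers all SDs. The spread was then 3.20 and 2.22 times the median of all genes in place of 4.04 and 3.94 times. The counts of genes called stayed within 1.5 times in every alternative run, and without any 1 library the F-test called 77 to 80 of the 100. With a replicate block the F-test called 73 of the 100 in place of 78, with 37 higher and 30 lower in the hatchling in place of 39 and 31; 10 of the 34 libraries were closest to a library of their own number. The call of LOC112565614 was lost with limma-voom (log2 fold change -5.56, adjusted p = 0.367), and the fit of Stage 2 and the hatchling alone gave no value for it. The search for near-identical proteins was not run.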
